A study of Mus musculus with 14 samples.

Results

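The effect of the MYC inhibitor MYCi975 on LLC1 tumours was described by comparing 4 tumour libraries from MYCi975-treated mice with 4 libraries from vehicle-treated mice, which are 8 of the 14 libraries of the study. Every gene was compared whose mean over the 14 libraries exceeded the lowest value of the table by 1 log2 unit, which left 13711 of 21152 genes. The account asks which genes held all MYCi975 libraries apart from all vehicle libraries, which pathways they belong to, and what is left when MYCi975 replicate 2, a library rich in leukocyte RNA, is set aside.

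MYC is a transcription factor of the basic helix-loop-helix family. It binds DNA as a dimer with its partner MAX, at E-boxes with the core CACGTG, and drives genes of growth, ribosome production, metabolism and transcription elongation, the last through factors that release paused RNA polymerase II. MYCi975 is a small molecule that binds MYC, interferes with its pairing with MAX and promotes loss of the MYC protein. LLC1 is the mouse Lewis lung carcinoma line, a transplantable line that grows fast in mice and is infiltrated by host myeloid cells, so RNA from a whole tumour mixes cancer cells with host leukocytes, fibroblasts, vessels and blood.

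Mice bearing LLC1 tumours received DMSO (the vehicle), MYCi975 at 50 mg/kg, TMP195 at 50 mg/kg or both compounds for 16 days. TMP195 inhibits the class IIa histone deacetylases, and its 3 libraries and the 3 libraries of the combination served here as a separate setting in which MYCi975 was added. No genetic change of the cells or the hosts is named in the labels, and the sources used here do not give the strain, sex and age of the mice, the route and schedule of dosing, or the dose of each compound in the combination. All groups share the LLC1 line, so the data describe 1 tumour model. The labels describe total RNA from an enriched tumour population, while the design text speaks of a bulk suspension, and whether each library came from a separate mouse is not stated. P-values therefore reflect library-to-library spread, some of which may be technical.

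Values were normalised expression levels on a log2 scale, and their floor of 4.047 stands for no reads. The depth of the libraries is unknown. Vehicle libraries had 880 to 2744 genes at the floor and MYCi975 libraries 1803 to 2954, the highest number in MYCi975 replicate 2. Lung epithelial identity could be checked only in part, since 4 of 9 markers were measured and the surfactant genes Sftpc, Sftpb and Sftpa1, the lung lineage factor Nkx2-1 and the club cell gene Scgb1a1 were not in the table. The level of Myc itself did not separate the groups, with 8.69, 9.05, 9.27 and 8.87 in vehicle replicates 1 to 4 and 8.97, 9.27, 9.42 and 8.86 in MYCi975 replicates 1 to 4. The difference in Myc was 0.16 (95% interval -0.15 to 0.47). Its partner Max was 8.17, 8.26, 8.38 and 7.93 with vehicle and 8.45, 8.70, 8.53 and 8.20 with MYCi975, and the groups overlapped. These are RNA levels, and the activity and amount of the MYC protein were not measured.

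Leukocyte content differed more between MYCi975 libraries than between the treatment groups. Ptprc, the gene of the leukocyte surface protein CD45, stood at 10.97, 10.26, 10.68 and 10.49 in vehicle replicates 1 to 4. With MYCi975 it stood at 10.87, 12.07, 10.09 and 10.35, so that replicate 2 lay above all other libraries while replicates 1, 3 and 4 lay within or just below the vehicle range. The group difference was 0.24 in an exact permutation test over libraries (two-sided p = 0.743, with 0.0286 the smallest p that 4 against 4 libraries can give), and it turned to -0.16 without replicate 2 (exact permutation p = 0.571). All 10 leukocyte markers of the list were measured. Their mean level was 8.104 to 8.718 with vehicle and 8.118 to 9.532 with MYCi975, where 9.532 was replicate 2. All 10 neutrophil markers were measured too, at 7.574 to 8.115 with vehicle and 7.67 to 9.437 with MYCi975, again highest in replicate 2. Of these neutrophil markers 10 were higher with MYCi975 over all libraries and 8 without replicate 2. The 12 macrophage and monocyte markers averaged 7.893 to 8.58 with vehicle and 7.669 to 8.962 with MYCi975, and 6 of them were higher over all libraries but 1 without replicate 2. Fibroblast and pericyte markers behaved otherwise: 8 of 10 were higher with MYCi975, and 10 of 10 were without replicate 2, with a median difference of 0.22 that became 0.30. Their mean levels nevertheless overlapped, at 8.608 to 9.368 with vehicle and 9.018 to 9.569 with MYCi975. Vehicle replicate 1 was the lowest of these libraries and MYCi975 replicate 1 the highest. In whole tumours a lower level can mean fewer cells of a type or less RNA per cell, and these cannot be told apart.

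**Figure D1:**
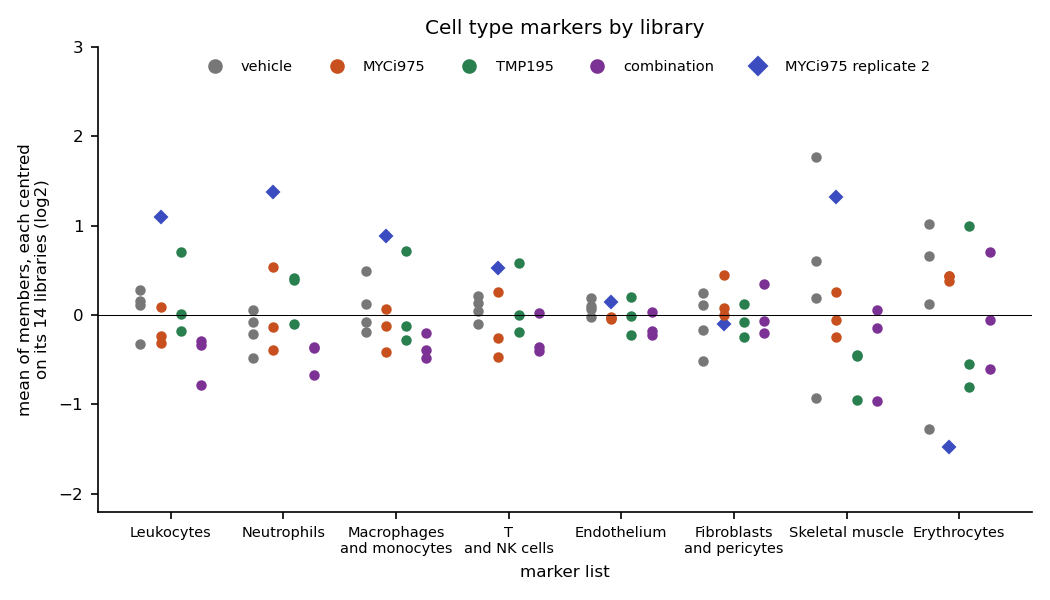
Mean log2 level of the measured markers of 8 cell types in each of the 14 libraries, with every marker first centred on its mean over the 14 libraries, so that 0 on the vertical axis is the average library. Each point is 1 library, coloured by treatment, and the diamond marks MYCi975 replicate 2, which stood highest for leukocytes, neutrophils and macrophages and lowest for erythrocytes.

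No gene passed the test between MYCi975 and vehicle. With limma across 13711 genes, 0 were called at an adjusted p under 0.05 (0% of the genes tested, smallest adjusted p = 0.999), and 457 (3.33%) had an unadjusted p under 0.05, of which 253 were higher (1.85%) and 204 lower (1.49%). Without MYCi975 replicate 2, limma again called 0 genes, with 378 at an unadjusted p under 0.05. The median standard error of a difference was 0.17, and the median 95% interval reached 0.37 to either side of the estimate. For 13097 genes (95.5%) this interval lay wholly within -1 and 1, and for 7081 genes (51.6%) it lay within -0.5 and 0.5. The intervals are not adjusted for the number of genes, and for genes near the floor the transformation compresses fold changes.

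Below the threshold of the test, a limited set of genes had all 4 MYCi975 libraries on one side of all 4 vehicle libraries. There were 238 such genes (1.74% of those tested), 141 higher with MYCi975 (1.03%) and 97 lower (0.707%). Labels dealt at random to the 8 libraries would set apart a share of 0.0286 of genes on average, which is more than this 1.74%. Their differences were modest, with a median size of 0.33 and a range of 0.11 to 1.71, against a median of 0.12 over all genes. Of the 238 genes 146 had an unadjusted p under 0.05. Leaving out any 1 of the 8 libraries gave 258 to 368 higher and 185 to 350 lower genes, since fewer libraries are easier to hold apart. The space between the groups was narrow for most: the median gap from the nearest MYCi975 library to the nearest vehicle library was 0.052 for the higher and 0.0461 for the lower genes, while the widest gaps were 0.31 (Ctr9) and 0.46 (Eml2). The genes described next are the 15 in each direction with the widest gap. They were picked by these very values, so their differences and unadjusted intervals are descriptions, and the limma adjusted p of each was 0.999. A single number in parentheses after the levels of a gene is its log2 difference, MYCi975 minus vehicle.

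**Figure D2:**
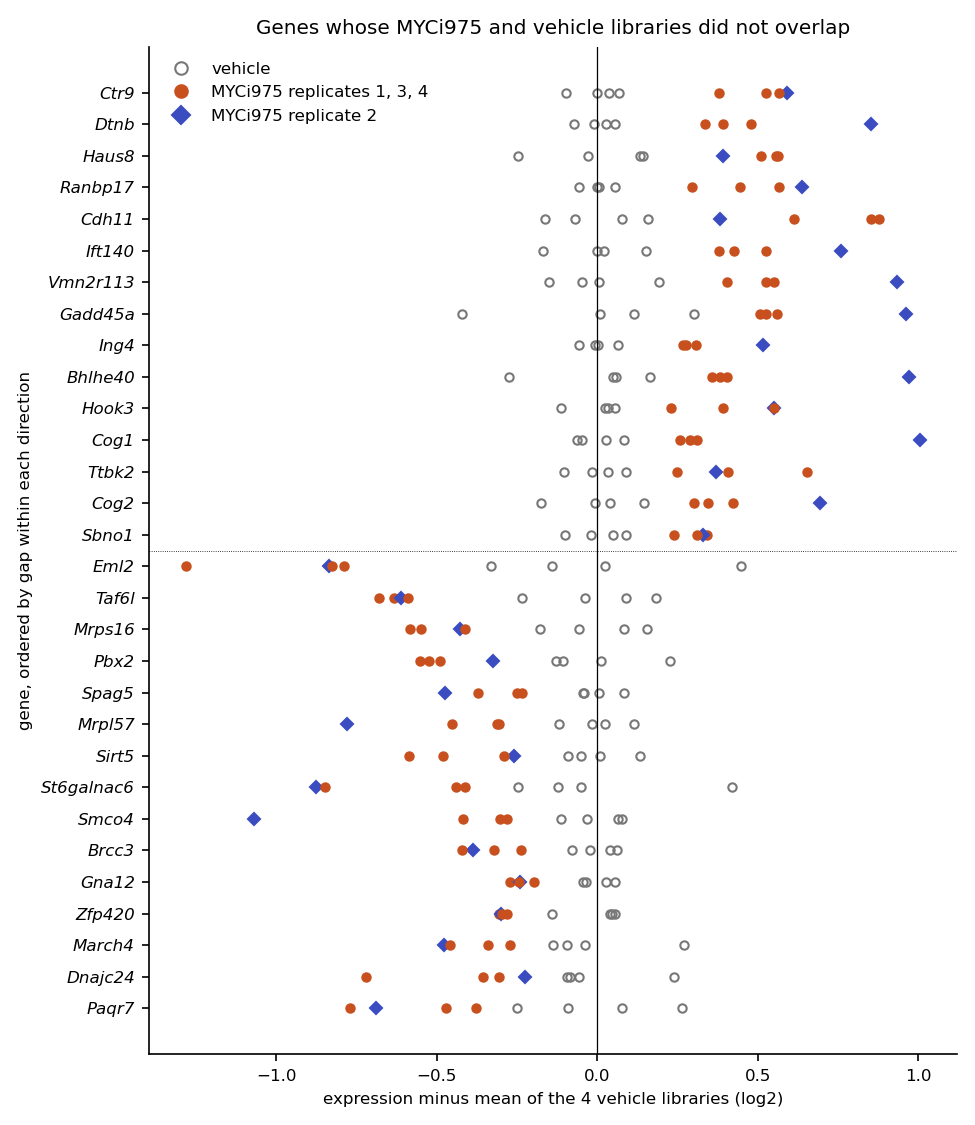
Log2 expression of the 15 higher and 15 lower genes with the widest gap between the groups, shown for each library as the difference from the mean of the 4 vehicle libraries. Open circles are vehicle libraries, filled circles MYCi975 replicates 1, 3 and 4 and diamonds MYCi975 replicate 2. The diamond lay among the other MYCi975 libraries for Taf6l and Gna12 and far from them for Cog1, Bhlhe40 and Smco4.

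Among regulators of transcription and chromatin, Ctr9 and Taf6l stood farthest apart between the treatments. Ctr9 (ENSMUSG00000005609.17) encodes the scaffold subunit of the PAF1 complex, which travels with RNA polymerase II during elongation. It measured 8.05, 8.02, 7.89 and 7.99 in vehicle replicates 1 to 4 and 8.37, 8.58, 8.51 and 8.55 in MYCi975 replicates 1 to 4. The lowest MYCi975 library thus lay 0.31 above the highest vehicle library, and the difference was 0.52 (95% interval 0.25 to 0.78), or 0.49 without replicate 2. Taf6l (ENSMUSG00000003680.17), a core subunit of the SAGA histone acetyltransferase complex, went the other way. Its levels were 6.33, 6.43, 6.21 and 6.01 with vehicle and 5.61, 5.63, 5.57 and 5.66 with MYCi975. The MYCi975 libraries lay close together, all below the vehicle range, and the difference was -0.63 (95% interval -0.90 to -0.36). Bhlhe40, a basic helix-loop-helix repressor that itself binds E-boxes, was 9.28, 9.16, 9.17 and 8.84 with vehicle and 9.51, 10.08, 9.47 and 9.49 with MYCi975. Replicate 2 was by far the highest for Bhlhe40, and without it the difference was 0.38 instead of 0.53.

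Other nuclear regulators were apart too. Sbno1, a helicase-like nuclear protein, was 10.76, 10.72, 10.57 and 10.65 with vehicle and 11.01, 11, 10.91 and 10.98 with MYCi975, so that all 4 MYCi975 libraries were tightly grouped above the vehicle libraries (0.30, 95% interval 0.099 to 0.51). Ing4, a reader of trimethylated histone H3K4, was higher by 0.34, with replicate 2 again apart from the other treated libraries. Pbx2, a homeodomain partner of HOX factors, was 7.73 to 8.08 with vehicle and 7.31 to 7.53 with MYCi975, a difference of -0.47. The zinc finger gene Zfp420 was lower by a smaller amount (-0.30), with all 4 MYCi975 libraries at 5.34 to 5.37. In the elongation list that holds Ctr9, 21 of 26 members were higher and 5 lower, with a median of 0.073 (0.076 without replicate 2). Ctr9 was the only member whose groups did not overlap over all libraries, and without replicate 2 there was also 1 on the lower side. In the combination against TMP195, 13 members of the list were higher and 13 lower (median -0.0059). Iws1, the elongation partner of Supt6 and not in that list, was noticed after the values were seen. It was 8.81, 8.69, 8.97 and 8.83 with vehicle and 9.41, 9.62, 9.07 and 9.66 with MYCi975 (0.62).

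The promoters of these genes were searched for the E-box core CACGTG, which reads the same on both strands, over the 250 bases before the start site in RefSeq (GRCm38.p6). Of the 30 widest-gap genes 25 had a promoter in that table and 2 held the motif, Sbno1 and Taf6l, whose sequences are shown because they are the only ones of these 25 to carry the site and because they differed in opposite directions. Both are written 5′ to 3′ on the gene's own strand, the minus strand, with the motif in capitals. The Sbno1 stretch lies at chr5:124425603-124425852 and its motif ends 71 bases before the start site, and the Taf6l stretch lies at chr19:8786317-8786566 with the motif 110 bases before the start.
Sbno1: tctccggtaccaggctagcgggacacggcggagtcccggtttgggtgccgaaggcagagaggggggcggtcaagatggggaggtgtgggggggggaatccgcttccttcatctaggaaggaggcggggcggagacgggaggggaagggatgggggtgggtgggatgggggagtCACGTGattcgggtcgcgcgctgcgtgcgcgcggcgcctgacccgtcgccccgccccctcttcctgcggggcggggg
Taf6l: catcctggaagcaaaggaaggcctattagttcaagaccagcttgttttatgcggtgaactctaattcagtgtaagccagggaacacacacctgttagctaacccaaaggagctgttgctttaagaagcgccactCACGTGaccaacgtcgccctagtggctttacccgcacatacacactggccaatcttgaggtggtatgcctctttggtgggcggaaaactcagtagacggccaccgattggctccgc
Of the genes tested 9570 had a listed promoter, and 934 of these genes (9.76%) held the motif in any of their promoters at this length. The share was 13 of 98 (13.3%) among the higher genes whose groups did not overlap and 4 of 74 (5.41%) among the lower ones. A match describes these letters and does not show binding.

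Genes of microtubules, cilia and the dynein motor appeared on both sides. Eml2 (ENSMUSG00000040811.16), a microtubule-associated protein of the EMAP family, had the widest gap of all named genes. It was 7.11, 7.54, 6.95 and 6.76 in vehicle replicates 1 to 4 and 5.81, 6.25, 6.26 and 6.30 in MYCi975 replicates 1 to 4, with replicate 1 the lowest. The highest MYCi975 library lay 0.46 below the lowest vehicle library, and the difference was -0.93 (95% interval -1.41 to -0.45). Its relative Eml4 was 9.15 to 9.33 with vehicle and 9.41 to 9.56 with MYCi975, and thus lay on the opposite side (0.29). Haus8, a subunit of the augmin complex that branches spindle microtubules, was 6.21, 5.99, 6.37 and 6.38 with vehicle and 6.79, 6.63, 6.75 and 6.80 with MYCi975 (0.51). The other augmin subunits did not share this: of 8 subunits 4 were higher and 4 lower, and Haus8 was the only one without overlap. Spag5 (astrin), which stabilises kinetochore attachments in mitosis, was 7.37, 7.32, 7.32 and 7.44 with vehicle and 6.99, 6.89, 7.13 and 7.11 with MYCi975, lower in all 4 treated libraries (-0.33).

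Hook3, an adaptor that links cargo to dynein, was 9.84, 9.71, 9.88 and 9.85 with vehicle and 10.21, 10.37, 10.05 and 10.37 with MYCi975 (0.43). Ift140, part of the retrograde intraflagellar transport complex of cilia, was 7.09, 7.41, 7.28 and 7.26 with vehicle and 7.64, 8.02, 7.79 and 7.69 with MYCi975, highest in replicate 2 (0.52). The kinase Ttbk2, which starts the assembly of cilia, was 7.46 to 7.65 with vehicle and 7.81 to 8.22 with MYCi975 (0.42). These 3 genes were each above all vehicle libraries. Of the 39 tested genes of intraflagellar transport and the BBSome, however, 22 were higher and 17 lower, and Ift140 alone did not overlap. Among 36 kinesins, dynein subunits and microtubule-associated proteins 26 were higher and 10 lower (22 and 14 without replicate 2), with Eml4 the separated higher member and Eml2 the separated lower one.

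In the secretory pathway and at the cell surface, 2 subunits of the COG complex, which tethers vesicles at the Golgi, were higher. Cog1 was 7.22, 7.17, 7.08 and 7.09 with vehicle and 7.43, 8.15, 7.45 and 7.40 with MYCi975. Its difference was 0.47, or 0.29 without replicate 2, which stood far above the other libraries. Cog2 was 7.01, 7.16, 7.05 and 6.84 with vehicle and 7.32, 7.71, 7.36 and 7.44 with MYCi975 (0.44). The complex did not move as a whole, since 4 of its 8 subunits were higher and 4 lower. St6galnac6, a sialyltransferase that makes gangliosides, was 6.66, 7.20, 6.73 and 6.54 with vehicle and 6.34, 5.91, 6.37 and 5.93 with MYCi975, lowest in replicates 2 and 4 (-0.64).

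Cdh11, a cadherin of mesenchymal cells, was 5.29, 5.61, 5.38 and 5.53 with vehicle and 6.06, 5.84, 6.33 and 6.30 with MYCi975. It was lowest in replicate 2 among treated libraries and differed by 0.68 over all libraries and by 0.78 without that one. Fibroblast and pericyte markers were also higher in 8 of 10 cases, as given above, though their mean levels overlapped between the groups. The part of these markers in the Cdh11 value was not tested. Dtnb, which encodes beta-dystrobrevin of the dystrophin-associated complex, was 7.40, 7.47, 7.34 and 7.44 with vehicle and 7.80, 8.27, 7.75 and 7.89 with MYCi975 (0.51). Gna12, the alpha subunit of a heterotrimeric G protein, was 7.78 to 7.88 with vehicle and 7.55 to 7.63 with MYCi975 (-0.24). Paqr7, a membrane receptor for progestins, was 5.82, 6.15, 6.33 and 5.97 with vehicle and 5.30, 5.38, 5.69 and 5.59 with MYCi975 (-0.58). The membrane ubiquitin ligase gene March4 (-0.39) and Smco4 (-0.52) were also lower in every treated library.

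Mitochondrial and stress genes completed the set. Mrps16, of the small subunit of the mitochondrial ribosome, was 6.65, 6.53, 6.86 and 6.79 with vehicle and 6.12, 6.28, 6.15 and 6.29 with MYCi975 (-0.49). Mrpl57, of the large subunit, was 6.49, 6.62, 6.53 and 6.38 with vehicle and 6.19, 5.72, 6.20 and 6.05 with MYCi975, lowest in replicate 2 (-0.46). Sirt5, a mitochondrial enzyme that removes succinyl groups from lysines, was 7.19, 7.24, 7.30 and 7.42 with vehicle and 6.81, 7.03, 6.70 and 6.997 with MYCi975 (-0.40). For these 3 genes the treated libraries lay below the vehicle libraries. Gadd45a, induced by growth arrest and DNA damage, lay on the other side. It was 7.84, 7.73, 7.31 and 8.03 with vehicle and 8.25, 8.69, 8.29 and 8.23 with MYCi975. Vehicle replicate 3 was the lowest and MYCi975 replicate 2 the highest for Gadd45a, and the difference was 0.64 (95% interval 0.27 to 1.01), or 0.53 without replicate 2. Pmaip1, which encodes the pro-apoptotic protein NOXA, was another p53-induced gene without overlap, at 7.29 to 7.55 with vehicle and 7.70 to 8.49 with MYCi975. Of the 25 tested p53-induced genes 14 were higher and 11 lower, and 11 and 14 without replicate 2. Brcc3, a deubiquitinase of the BRCA1-A complex (-0.34), and Dnajc24, which acts in the synthesis of diphthamide (-0.40), were lower. Ranbp17, of the importin family (0.49), was higher. The vomeronasal receptor gene Vmn2r113 (0.60) belongs to a family of near-identical copies and is uncertain as a single gene.

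At the edge of the rule the groups all but touched. The narrowest gaps among separated genes were those of Acbd3, a Golgi protein (higher by 0.22, gap 0.000378), and Ly75, an endocytic receptor (-0.25, gap 0.000122). Just outside lay Dhx8, a helicase of the spliceosome, whose difference of 0.30 was close to that of Sbno1 but whose gap was -6.42e-06 (a negative gap is an overlap), and Zbed3 (-0.24, gap -1.88e-05). Vehicle replicate 2 was far below the others for Dhx8 and stood at 7.40 against 8.03 to 8.15 in the other vehicle libraries.

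MYCi975 replicate 2 was either the highest or the lowest treated library for 66.5% of the genes tested, against 35.9% to 50% for the other 3. Each gene counts for its highest and for its lowest library, and the same share was 45.3% to 53.4% among vehicle libraries. The median SD over genes was 0.21 within vehicle, 0.25 within MYCi975 and 0.20 within MYCi975 without replicate 2. Without it 480 genes (3.5%) had groups that did not overlap, 258 higher (1.88%) and 222 lower (1.62%). The 238 genes are among them by construction, and fewer libraries make a gap easier to reach. The share of 0.0286 under random labels holds for 4 against 4 libraries and is larger for 3 against 4. Of the 242 added genes 117 were higher and 125 lower. Those with the widest gaps, picked after the values were seen, included Rbms3, an RNA-binding protein of mesenchymal cells. It was 7.13, 6.81, 6.69 and 7.004 with vehicle and 7.83, 6.78, 7.78 and 7.52 with MYCi975, where only replicate 2 lay in the vehicle range. Kif3c, a kinesin motor, was 6.72, 6.54, 6.53 and 6.69 with vehicle and 6.97, 6.34, 7.29 and 7.39 with MYCi975, in which replicate 2 lay below all vehicle libraries. Replicate 2 was below all vehicle libraries for the complement regulator gene Cd46 as well. On the lower side, Itga9, the integrin alpha-9 chain, was 6.73, 7.002, 6.53 and 7.20 with vehicle and 6.28, 6.88, 5.44 and 6.10 with MYCi975. Bak1, an effector of mitochondrial apoptosis, was 7.31, 7.19, 7.39 and 7.18 with vehicle and 6.93, 7.25, 6.91 and 6.91 with MYCi975. In both of these, replicates 1, 3 and 4 were below all vehicle libraries and replicate 2 was inside their range.

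**Figure D3:**
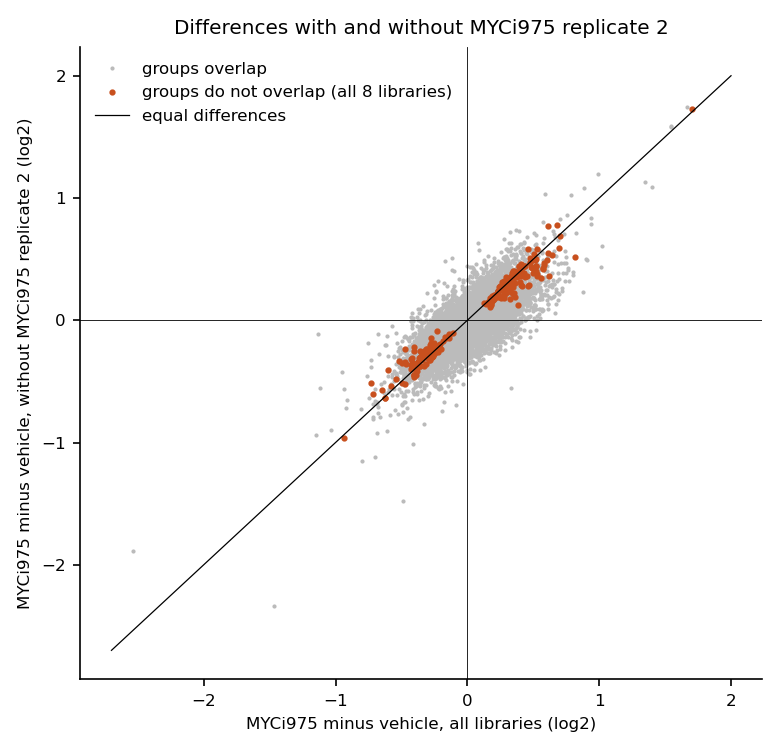
Difference between MYCi975 and vehicle (log2) of each gene tested with all 8 libraries on the horizontal axis and without MYCi975 replicate 2 on the vertical axis. Grey points are genes whose groups overlap, coloured points the 238 genes whose groups do not, and the line marks equal differences.

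The genes with the greatest mean differences were mostly not the separated ones. There were 14 genes with a difference beyond 1 log2 unit, 8 higher and 6 lower, of which 8 remained beyond 1 without replicate 2. The predicted gene Gm11847 was the 1 separated gene among them (1.71). Most were predicted genes or pseudogenes, and the 3 others were Slc2a3, Nos1 and Hist1h2aj, described here after their values were seen. Slc2a3, a glucose transporter of leukocytes and neurons, was 7.63, 7.39, 7.15 and 6.85 with vehicle and 8.62, 10.01, 7.34 and 7.11 with MYCi975. Its difference was 1.02, or 0.44 without replicate 2, the library highest in leukocyte markers, whose part in this value was not tested. Nos1, the neuronal nitric oxide synthase, was 6.53, 6.07, 5.15 and 5.66 with vehicle and 4.63, 4.40, 4.68 and 5.57 with MYCi975 (-1.03, or -0.90 without replicate 2), and only MYCi975 replicate 4 reached the vehicle range. The histone gene Hist1h2aj stood at the floor in 1 vehicle and 2 MYCi975 libraries and is one of a family of near-identical copies.

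Other genes with a great mean difference, also picked after their values were seen, included products of myeloid cells and of stroma. Slfn4, a schlafen gene of myeloid cells, was 9.25, 11.54, 8.66 and 8.99 with MYCi975 and 9.07, 8.86, 8.69 and 8.33 with vehicle, and its difference of 0.88 was 0.23 without replicate 2. Chil3, which encodes a chitinase-like protein of macrophages and neutrophils, was 7.74, 7.94, 8.06 and 7.65 with vehicle and 8.77, 9.55, 8.20 and 8.11 with MYCi975, with no overlap (0.81, or 0.52 without replicate 2). The secreted glycoprotein gene Thbs1 was 12.56, 12.46, 12.82 and 12.59 with vehicle and 13.86, 14.61, 12.62 and 12.52 with MYCi975, high in replicates 1 and 2 only. Egr1, an immediate early transcription factor, was likewise high in replicates 1 and 2 (10.92, 11.52, 9.56 and 8.88 in MYCi975 replicates 1 to 4, 9.91, 8.98, 9.68 and 9.09 with vehicle). Mmp3, a stromal matrix protease, was 12.07, 11.50, 11.94 and 11.37 with vehicle and 11.29, 9.18, 11.21 and 11.39 with MYCi975, with replicate 2 far below the other 7 of these libraries (-0.95, or -0.42 without it). Carmil1, a regulator of actin capping, differed by 0.94, with values of 6.62 to 7.62 in vehicle and 7.60 to 8.43 in MYCi975 libraries that overlapped by little. Pde5a, a phosphodiesterase of smooth muscle and pericytes, was 5.15, 5.09, 5.32 and 5.49 with vehicle and 5.32, 6.49, 6.55 and 6.44 with MYCi975, and only replicate 1 overlapped the vehicle libraries.

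Beyond single genes, 51 lists of pathways and complexes were described, covering 1411 of the genes tested. They held 25 separated members (1.77%, close to the 1.74% of all genes), 17 higher and 8 lower. The median difference of a list ran from -0.0805 to 0.17, beside a median of 0.0073 over all genes, 51.7% of which were higher. Of 34 lists with a median above 0, 10 came to 0 or below without replicate 2. Of 17 lists with a median below 0, 9 came to 0 or above. In 18 lists the median had the same sign over all libraries, without replicate 2 and in the combination against TMP195.

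**Figure D4:**
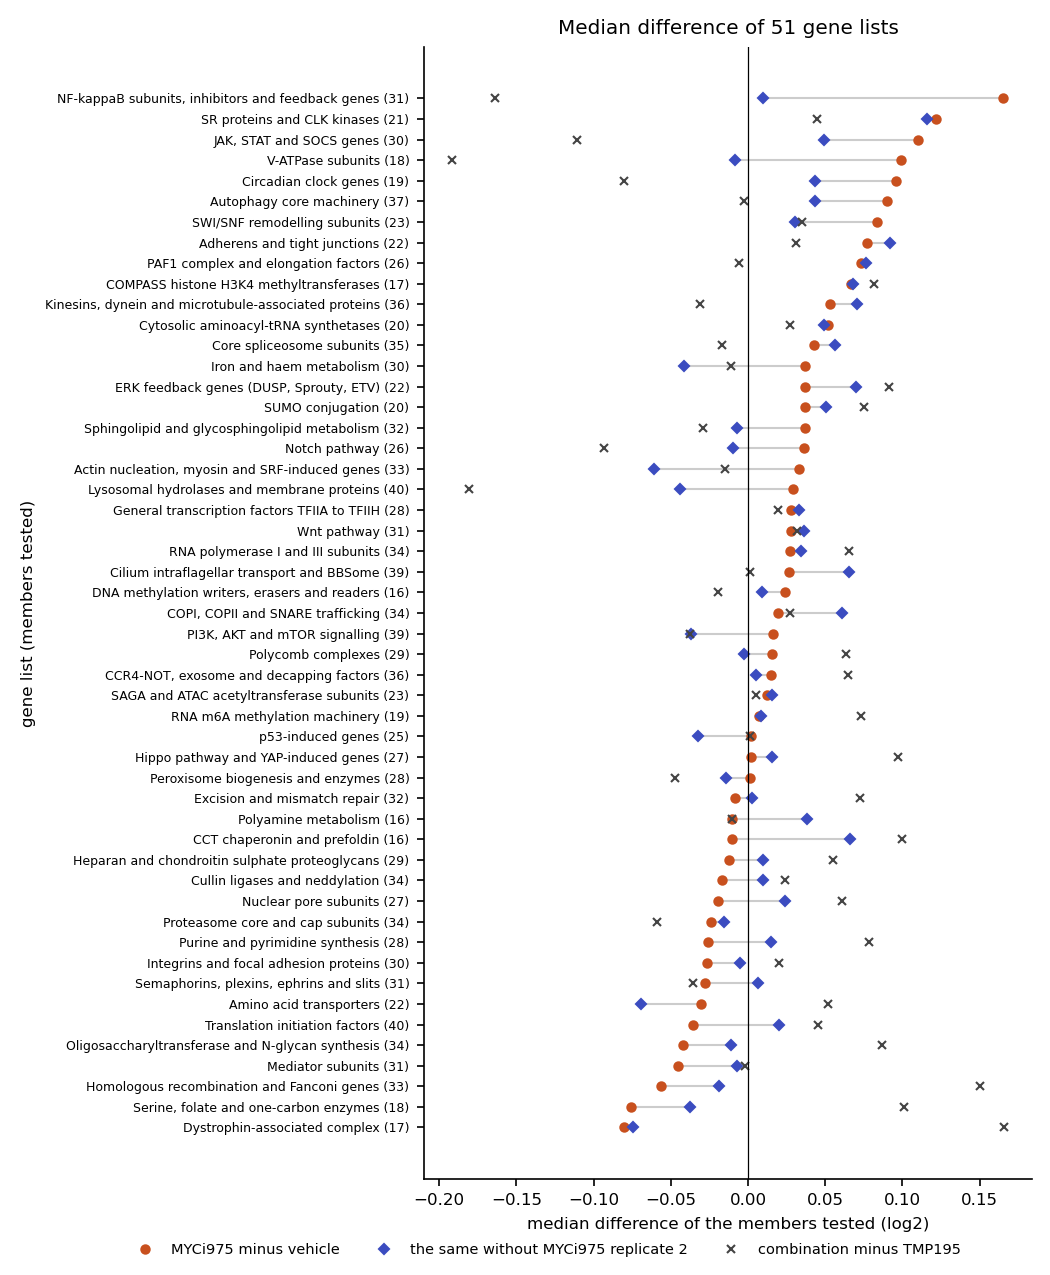
Median difference (log2) of the tested members of 51 gene lists, with the number tested in brackets. Circles are MYCi975 minus vehicle, diamonds the same without MYCi975 replicate 2, joined by a line, and crosses the combination minus TMP195; NF-kappaB genes had the highest circle and a diamond near 0, while the circle and diamond of SR proteins lay side by side.

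Among the 6 lists with the highest medians, that of SR proteins and CLK kinases changed least when replicate 2 was set aside, but it came to 0.058 under quantile normalisation. SR proteins select splice sites, and CLK kinases phosphorylate them. Of 21 members 20 were higher and 1 was lower, with a median of 0.12 (0.12 without replicate 2, 0.045 in the combination against TMP195). None was separated. The kinase gene Clk1 differed by 0.28 (without replicate 2 by 0.17), Clk3 by 0.34 (0.36), and the splicing activator Tra2a by 0.26 (0.18). Srrm2, a large splicing coactivator, was 12.53, 12.52, 12.26 and 12.35 with vehicle and 12.69, 12.78, 12.62 and 12.51 with MYCi975, where MYCi975 replicate 4 alone overlapped. Srsf9 was the member on the lower side (-0.059).

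The NF-kappaB list had the highest median, 0.17, with 25 of 31 members higher and 6 lower, but 0.0095 without replicate 2. Tnfaip3, which encodes the ubiquitin-editing feedback inhibitor A20, differed by 0.71 and by 0.26 without that library. Nfkbia, the gene of the inhibitor IkB-alpha, went from 0.37 to 0.071. The kinase adaptor gene Ikbkg differed from these, with 0.54 over all libraries and 0.53 without replicate 2, and it was 7.69, 6.95, 7.48 and 6.75 with vehicle and 8.08, 7.79, 7.62 and 7.54 with MYCi975. JAK, STAT and SOCS genes followed with a median of 0.11 (26 higher, 4 lower) that became 0.049. In this list Pim1, a STAT-induced kinase, went from 0.54 to 0.054, Socs3, a feedback inhibitor, from 0.39 to 0.15 and Stat3 from 0.33 to 0.12. Leukocyte markers were highest in replicate 2. With Ptprc as a covariate, an alternative chosen after seeing the data, the median was 0.07 for the NF-kappaB list and 0.07 for the JAK, STAT and SOCS list. The medians of both lists in the combination against TMP195, where leukocyte markers were lower (median -0.69), were -0.16 and -0.11. The part of leukocyte content in these medians was not tested.

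Among the other high lists, the V-ATPase, which acidifies lysosomes, had 14 of 18 subunits higher (median 0.099), and its median was -0.0087 without replicate 2. The subunit gene Atp6v0a2 lay on the other side (-0.54), at 8.42, 8.37, 8.02 and 8.35 with vehicle and 8.07, 7.46, 7.67 and 7.81 with MYCi975. Circadian clock genes had 13 of 19 members higher (median 0.096, or 0.044 without replicate 2), led by the output factor Tef (0.58) and Bhlhe40, while Per3 (-0.22) and Arntl, the gene of the activator BMAL1 (-0.20), were lower. Autophagy genes had 25 of 37 higher (median 0.09, or 0.043), with Atg7, the enzyme that activates the conjugation of LC3, at 6.54 to 6.95 with vehicle and 6.95 to 7.30 with MYCi975. Medians in the combination against TMP195 were -0.192 for the V-ATPase, -0.0804 for clock genes and -0.0025 for autophagy genes.

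The lists with the lowest medians were small in their distances. The dystrophin-associated complex had the lowest median (-0.0805), which was -0.0742 without replicate 2, but -0.142 without MYCi975 replicate 3, -0.0221 without vehicle replicate 2 and 0.01 with Ptprc as a covariate. It had 8 of 17 members higher and 9 lower, and its member with the widest gap, Dtnb, was higher. The enzymes of serine, folate and one-carbon metabolism had 14 of 18 members lower, with a median of -0.0757 that was -0.0373 without MYCi975 replicate 2, -0.0142 without vehicle replicate 3 and -0.126 without MYCi975 replicate 4. In this list Psph, which completes serine synthesis, differed by -0.46 (-0.48 without replicate 2), and it was 5.81, 6.52, 6.70 and 6.83 with vehicle and 5.52, 6.08, 6.27 and 6.16 with MYCi975. The mitochondrial enzyme gene Mthfd1l was 8.81, 9.09, 9.08 and 8.99 with vehicle and 8.51, 8.68, 8.56 and 8.93 with MYCi975 (-0.32), where MYCi975 replicate 4 alone overlapped. Phgdh, which starts serine synthesis, was on the higher side (0.12). Both lists had medians of the other sign in the combination against TMP195, 0.166 for the dystrophin-associated complex and 0.101 for the one-carbon enzymes.

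Homologous recombination and Fanconi genes had 22 of 33 members lower (median -0.0563, or -0.019 without replicate 2). Eme1, a nuclease subunit, differed by -0.44, and the annealing factor gene Rad52 by -0.42. Oligosaccharyltransferase and N-glycan synthesis genes had 23 of 34 members lower (median -0.0421, or -0.0112), among them Alg14 (-0.36) and Ddost (-0.23). Mediator, the coactivator that bridges transcription factors to RNA polymerase II, had 17 of 31 subunits lower (median -0.0454, or -0.0072, and 0.045 over the subunits more than 2 above the floor). Its kinase-module subunit Med12 was nevertheless separated on the higher side, at 8.32, 8.24, 8.15 and 7.74 with vehicle and 8.54, 8.57, 8.78 and 8.45 with MYCi975 (0.47, 95% interval 0.17 to 0.78). Translation initiation factors had 22 of 40 members lower (median -0.0359), a median that turned to 0.02 when MYCi975 replicate 2 was left out and to 0.026 when vehicle replicate 3 was. Their separated members were Eif3i (-0.24) and Eif2b5 (-0.14). When the combination was set against TMP195, 27 of 33 homologous recombination and Fanconi genes were higher (median 0.15). Medians in that setting were 0.087 for N-glycan synthesis, 0.045 for translation initiation factors and -0.00225 for Mediator.

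Most of the medians described for MYCi975 against vehicle moved by more than 1.5 times when a library other than MYCi975 replicate 2 was left out. The NF-kappaB median was 0.097 without vehicle replicate 2 and 0.11 without vehicle replicate 4. The JAK, STAT and SOCS median was 0.17 if either vehicle replicate 1 or MYCi975 replicate 4 was omitted. For the V-ATPase it was 0.17 without MYCi975 replicate 3, 0.044 with Ptprc as a covariate and 0.059 under quantile normalisation. For clock genes it was 0.024 without MYCi975 replicate 3, 0.16 without MYCi975 replicate 4, 0.15 without vehicle replicate 1 and 0.16 over the clock genes more than 2 above the floor.

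The medians below 0 moved with the libraries as well. The dystrophin median was also -0.0368 without MYCi975 replicate 1, -0.121 without vehicle replicate 1 and -0.0493 without vehicle replicate 4. The one-carbon median was -0.0317 and -0.125 when MYCi975 replicate 1 or 3 was dropped, -0.123 when vehicle replicate 4 was, and -0.0504 with Ptprc as a covariate. For homologous recombination the value was -0.0896 or -0.0862 when MYCi975 replicate 3 or 4 was omitted, -0.0329 or -0.113 when vehicle replicate 1 or 3 was, and -0.0249 with Ptprc as a covariate. N-glycan synthesis genes stood at -0.0759 without MYCi975 replicate 3, -0.0891 without vehicle replicate 1, -0.0192 with Ptprc as a covariate and -0.0866 after quantile normalisation. Mediator stood at -0.00069 when MYCi975 replicate 1 was dropped and at -0.0146 or -0.0284 when vehicle replicate 2 or 3 was. Translation initiation factors stood at -0.0098 when MYCi975 replicate 1 was dropped, at -0.0726 or -0.0233 when vehicle replicate 1 or 4 was, at -0.073 after quantile normalisation and at -0.0172 with Ptprc as a covariate. For autophagy genes and for SR proteins and CLK kinases, no library other than MYCi975 replicate 2 moved the median by that much.

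Separated members of the other lists lay on both sides. Over all 51 lists 17 separated members were higher and 8 lower, beside 141 and 97 over all genes tested. Rbbp5, a core subunit of the COMPASS methyltransferases, was 8.17 to 8.28 with vehicle and 8.40 to 8.74 with MYCi975 (0.30). The SUMO list held 2 separated members among 20 tested, the ligase gene Nsmce2 (0.25) and the protease gene Senp2 (0.24). Ythdf3, a reader of m6A in RNA, differed by 0.28, Polr3gl, an RNA polymerase III subunit, by 0.58, and Paox, which oxidises acetylated polyamines, by 0.47. The heavy chain of non-muscle myosin, Myh9, differed by 0.28. On the lower side were the proteasome ATPase gene Psmc3 (-0.21), the peroxisomal ubiquitin ligase gene Pex2 (-0.24) and Ndst1, which sulphates heparan (-0.34). Among ERK feedback genes Spry4 was higher (0.27) and Dusp14 lower (-0.14).

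The combination against TMP195 also sets tumours with MYCi975 against tumours without it, at a dose not given for the combination, in libraries that share no sample with the comparison above. These libraries entered the filter on low values but not the rule of separation. Its limma test also called 0 genes, with 603 at an unadjusted p under 0.05 and a smallest adjusted p of 0.998. Of the 141 genes that were higher with MYCi975, 60 were higher in this setting as well (42.6%, where 51.1% of all genes were higher). Of the 97 lower genes 40 were lower (41.2%, where 48.9% of all genes were). Together 100 of 238 (42%) had the same sign in both settings, beside 44.2% of all genes. Ptprc was lower with MYCi975 in this setting, being 10.46 to 11.45 with TMP195 alone and 9.652 to 10.35 with the combination. With Ptprc as a covariate, an alternative chosen after seeing the data, 149 of 238 (62.6%) had the same sign, beside 55.3% of all genes. Without TMP195 replicate 3, the library of that group with the most Ptprc, the share was 54.6% beside 48.8%. Leaving out combination replicate 1 gave 50.8% beside 45.4%. Leaving out MYCi975 replicate 2 gave 261 of the 480 genes then separated (54.4%), close to the 53.4% of all genes.

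A few genes were apart in the same direction in both settings. There were 10 higher (7.09% of the 141, where 5.48% of all genes had combination libraries wholly above TMP195 libraries) and 3 lower (3.09% of the 97, against 6.36% of all genes), while 9 and 5 were apart in opposite directions. Of the 10 higher genes 9 had a symbol other than that of a predicted gene. The higher ones included a pair of feedback inhibitors of receptor tyrosine kinase signalling, noticed after their values were seen. Errfi1, which encodes the EGFR inhibitor MIG6, was 9.92, 10.04, 10.05 and 10.05 with vehicle and 10.49, 10.32, 10.42 and 10.12 with MYCi975. It was 9.94, 9.80 and 10.04 in TMP195 replicates 1 to 3 and 10.34, 10.41 and 10.73 in combination replicates 1 to 3, again with no overlap. The differences were 0.32 (95% interval 0.072 to 0.57) and 0.57 (0.28 to 0.86), with limma adjusted p of 0.999 and 0.998. The intervals are unadjusted descriptions of a gene picked by these values. Spry4, a Sprouty inhibitor of ERK signalling, was 8.72, 8.91, 8.92 and 8.74 with vehicle and 9.24, 8.95, 9.17 and 8.999 with MYCi975. In the other setting it was 8.81, 8.42 and 8.71 with TMP195 and 8.95, 9.09 and 9.56 with the combination. In each setting the lowest library with MYCi975 exceeded the highest without it for both genes, the property by which this pair was picked.

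**Figure D5:**
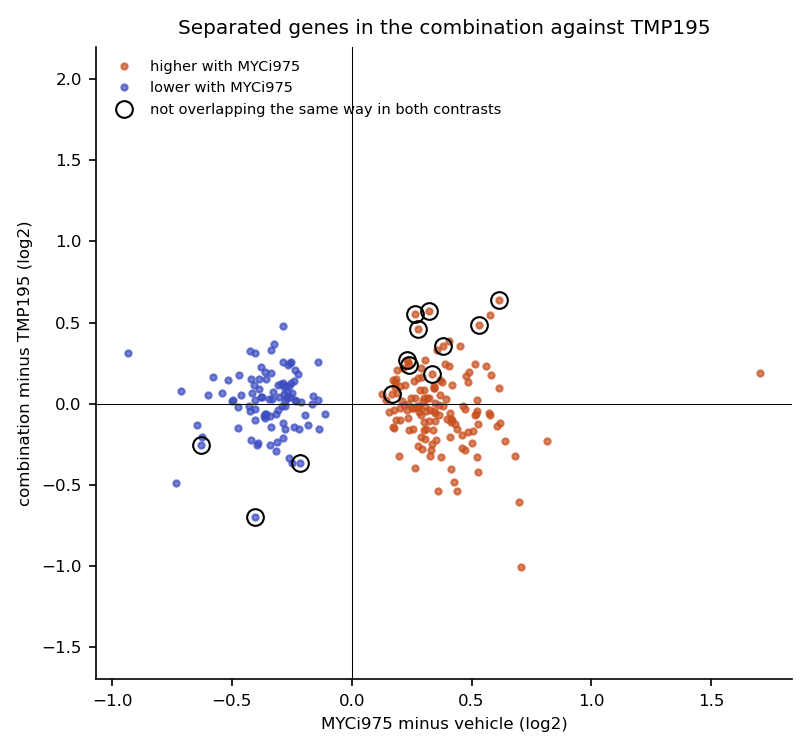
Differences (log2) of the 238 genes whose MYCi975 and vehicle libraries did not overlap, with MYCi975 minus vehicle on the horizontal axis and the combination minus TMP195 on the vertical axis. Each point is a gene, coloured by its direction with MYCi975, and circles mark the 10 higher and 3 lower genes without overlap in the same direction in both; points lie on both sides of 0 on the vertical axis.

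Rapgef3, the cAMP-responsive exchange factor EPAC1, was 6.42, 6.31, 5.97 and 5.98 with vehicle and 6.87, 6.54, 6.68 and 6.72 with MYCi975, and 6.44, 6.30 and 6.42 with TMP195 and 7.04, 6.51 and 7.05 with the combination (0.53 and 0.48). Oxnad1 differed by 0.62 and 0.64, Slc22a15, a solute carrier, by 0.38 and 0.35, and Nat14 by 0.28 and 0.46. The deubiquitinase gene Usp15 differed by 0.17 and 0.058, Senp2 by 0.24 and 0.24, and Ppdpf by 0.23 and 0.27. On the lower side Taf6l was 6.27, 6.18 and 6.02 with TMP195 and 5.85, 5.92 and 5.94 with the combination, a difference of -0.26 (95% interval -0.57 to 0.059) beside -0.63 against vehicle. Adamts7, a secreted metalloprotease, differed by -0.40 and -0.70, and the mannosidase gene Man1b1 by -0.22 and -0.37.

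For Ctr9 and Eml2, which had the widest gap in each direction, the difference had the opposite sign in the combination against TMP195. Ctr9 was 8.13, 8.35 and 8.04 with TMP195 and 7.81, 8.31 and 8.18 with the combination, so that the groups overlapped (-0.07, 95% interval -0.38 to 0.24). Eml2 was 6.91, 6.26 and 5.85 with TMP195 and 6.85, 6.76 and 6.34 with the combination (0.31). The difference between the settings was -0.59 for Ctr9 (95% interval -0.99 to -0.18) and 1.24 for Eml2 (0.51 to 1.98), each with a limma adjusted p of 0.911. Both genes were picked by MYCi975 and vehicle values that enter this difference, so its unadjusted intervals are descriptions. That contrast called 0 genes over all, with 656 at an unadjusted p under 0.05.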

How the data were processed

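RNA was measured in 14 tumour libraries, of which the 4 MYCi975 and 4 vehicle libraries form the comparison. The authors deposited 1 table of log2-scale values after a variance-stabilising transformation, per the file headers and the table's name. Salmon (version not given) and the build hg38 appear in the submitters' processing notes. The identifiers are mouse Ensembl IDs, so the build is not settled here and no coordinates were taken from the table. The values do not lie on steps of whole reads, so neither the depth nor a count model could be had. Symbols were found for 20264 of 21152 IDs (95.8%).

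All 14 libraries entered a limma 3.58.1 fit (R 4.3.3) with a mean for each group, empirical Bayes moderation along the intensity trend (10 residual degrees of freedom), two-sided, with Benjamini-Hochberg adjustment over 13711 genes and a threshold of 0.05. The 3 contrasts were MYCi975 minus vehicle, combination minus TMP195 and their difference. Separated means that the 4 MYCi975 values all lay above, or all below, the 4 vehicle values. The scripts were tested on simulated data.

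The rule named the 15 separated genes in each direction with the widest gap, without predicted genes, pseudogenes and clone names. It also named up to 3 separated members in each direction (or the smallest p, to make 2) of the 6 lists with the highest and the 6 with the lowest median, separated members of other lists, Myc, Max, Ptprc, and the genes just inside and outside separation. Named after their values were seen were Iws1, genes of greatest mean difference, genes separated only without MYCi975 replicate 2, genes separated in both settings, the other members of described lists, and the COG and augmin lists. The comparison, members and lists were chosen with earlier results of these data known. Alternatives were no filter, a filter 2 above the floor, median centring, quantile normalisation, other moderation, library weights, the 8 libraries alone, a replicate block, Ptprc as a covariate and leaving out each library. Promoter sequences are from RefSeq.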

Additional observations from a re-analysis of the deposited data

Results flagged for a closer look

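In groups of 4 libraries, a library was singled out where its gap to the nearest other library took up nearly the whole range of its group. Chance does this in about 1 in 20 groups, and 24 of 220 pairs of a named gene and a group met it. MYCi975 replicate 2 held 13 of the 24, although some genes were chosen because this library lay apart. It was above the other MYCi975 libraries for Bak1 (7.247), Bhlhe40 (10.08), Cog1 (8.147), Gadd45a (8.688), Ing4 (6.807), Nxpe4 (6.701), Slc22a15 (6.573), Trim14 (6.501) and Vmn1r229 (6.19). It was below them for Cd46 (4.663), Mmp3 (9.183), Ubap2l (9.927) and Zbed3 (5.688).

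Of the other MYCi975 libraries, replicate 1 was lowest for Eml2 (5.808) and Pde5a (5.324), and replicate 4 was highest for Eme1 (5.862). Among vehicle libraries, replicate 1 stood apart for Dnajc24 (6.277) and Errfi1 (9.918), and replicate 2 for Dhx8 (7.403) and Eml4 (9.33). Replicate 3 was lowest for Zfp420 (5.506), and replicate 4 was lowest for Nat14 (5.256), Senp2 (8.218) and Ubap2l (9.851).

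For 2 named genes the libraries were apart in opposite directions in the 2 settings in which MYCi975 was added. Paqr7 differed by -0.58 against vehicle and by 0.16 in the combination against TMP195, a difference of 0.74 between the settings. Sbno1 differed by 0.30 and -0.22, a difference of -0.52. In limma's test of that difference the adjusted p was 0.911 for each gene.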

How the results depend on the processing

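No gene was called for MYCi975 against vehicle, or for the difference between the settings, under any alternative run. Of 1956 values of named genes under the alternatives 1 turned its sign, that of Ptprc, which was -0.164 without MYCi975 replicate 2, and 0 passed the threshold (lowest limma adjusted p = 0.842). Leaving out 1 library gave Ptprc differences of -0.164 to 0.496. Without a filter on low values 177 genes were separated on the lower side and 818 without replicate 2. Leaving out 1 library gave 258 to 368 higher genes instead of 141 and 185 to 350 lower genes instead of 97. The count without replicate 2, 480, became 918 to 1029 when a vehicle library was left out too. Fewer libraries make a gap easier to reach by construction. The median of the Mediator list was 0.0447 with a filter 2 above the floor.

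Vehicle and MYCi975 libraries share replicate numbers, and the labels do not say whether the numbers pair them. Deviations from the group means correlated by 0.0364, -0.22, -0.00126 and 0.21 for numbers 1 to 4. Of 4 vehicle libraries 1 correlated best with its own number. So few libraries cannot settle whether a shared number marks a shared batch. With a replicate block limma called 0 genes (smallest adjusted p = 0.993). Depth is unknown, so its part in the precision could not be assessed.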
